A study of Homo sapiens with 18 samples.

Results

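Expression of 10 heat shock protein genes, and the H3K4me1, ERα and SP1 peaks around them, was examined in ZR751 cells with and without knockdown of MLL3. The genes were HSPB1, HSPB8, HSPA1A, HSPA8, HSP90AA1, HSP90AB1, HSPH1, HSPD1, HSPE1 and DNAJB1. They were found in the RNA-seq table by their RefSeq identifiers, and make up 10 of its 23500 named rows. Peaks were counted when they lay within 50 kb of a gene. The cells are of an established human line from an ER+ breast cancer. ZR751shMLL3 cells stably carry 1 short hairpin RNA against MLL3 (gene symbol KMT2C), an enzyme that adds a single methyl group to lysine 4 of histone H3 at enhancers. ZR751shLucif cells carry a hairpin against luciferase as the control. Both are pools of transduced cells sorted for GFP, grown in the same serum-containing medium with insulin, with no heat or drug treatment in the labels. Each cell line had 2 biological replicates for RNA-seq and for each of 3 antibodies, and 1 input library that was not analysed here. Cells of several early passages were used, and the labels give no passage for a library, so its part in the results was not tested. MLL3 was targeted with 1 hairpin, so effects of that hairpin on other genes cannot be told apart from those of MLL3.

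Heat shock proteins are molecular chaperones, which bind unfolded protein and help it to fold, to move or to be degraded. Small heat shock proteins hold unfolded protein, the HSP70 machine folds it with ATP, J domain proteins deliver clients to HSP70, and HSP90 completes the maturation of kinases and of steroid receptors, ERα among them. HSPD1 and HSPE1 form the folding chamber of mitochondria. Many of these genes are driven by heat shock factor 1, which binds repeats of the unit nGAAn, and many of their promoters hold GC boxes, the sequence to which SP1 binds.

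The promoters differed in exact matches to a heat shock element, while all 10 held a GC box. A heat shock element of 3 alternating units, searched on both strands as GAA, TTC and GAA with any 2 bases between neighbours, in the 250 bases before the transcription start, was present in 4 of the 10 promoters, against 0.343% of 20417 promoters. HSPA8 and HSPD1 each held 2 such matches, those of HSPD1 overlapping each other, and HSP90AA1 and HSPH1 held 1 each. The GC box, searched as GGGCGG on both strands, was present in all 10 promoters, against 57.2% of all promoters. DNAJB1 held the most, with 7 matches, some of which overlapped. The full estrogen response element, GGTCA and TGACC with any 3 bases between them, was in 0 of the 10 and in 0.0245% of all promoters. Its single arm GGTCA was in 1 of the 10 (HSPB1) and in 30.6% of all. A match is a string of letters and not a bound site. The search needs every fixed letter of the 3 units, so a promoter without a match can still hold an imperfect heat shock element. The matches of HSPD1 lie outside the 250 bases searched for HSPE1. The 4 promoters with a heat shock element are shown first, then DNAJB1 for its GC boxes, and then HSPB8, which had the largest rise in RNA. The sequences were read from the GRCh37 genome, the build of the deposited files, and are given in the direction of transcription. Capitals mark heat shock elements and GC boxes.
HSPA8 promoter, chr11:122932845-122933094, minus strand: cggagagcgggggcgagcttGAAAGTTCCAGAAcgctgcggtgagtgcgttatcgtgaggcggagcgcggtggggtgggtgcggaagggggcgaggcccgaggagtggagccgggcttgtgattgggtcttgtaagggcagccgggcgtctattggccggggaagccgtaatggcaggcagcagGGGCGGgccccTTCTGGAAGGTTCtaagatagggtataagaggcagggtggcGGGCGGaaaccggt
HSPH1 promoter, chr13:31736042-31736291, minus strand: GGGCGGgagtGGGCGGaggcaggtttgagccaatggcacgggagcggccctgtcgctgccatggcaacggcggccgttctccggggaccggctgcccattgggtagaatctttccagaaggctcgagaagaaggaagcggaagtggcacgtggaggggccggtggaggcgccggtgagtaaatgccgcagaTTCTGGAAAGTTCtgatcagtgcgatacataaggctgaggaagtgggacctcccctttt
HSPD1 promoter, chr2:198364565-198364814, minus strand: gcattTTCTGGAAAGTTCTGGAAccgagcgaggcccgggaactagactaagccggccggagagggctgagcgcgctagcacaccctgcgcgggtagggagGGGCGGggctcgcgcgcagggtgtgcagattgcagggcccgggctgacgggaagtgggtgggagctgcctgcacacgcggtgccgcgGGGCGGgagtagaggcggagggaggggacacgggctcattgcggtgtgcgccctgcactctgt
HSP90AA1 promoter, chr14:102553382-102553631, minus strand: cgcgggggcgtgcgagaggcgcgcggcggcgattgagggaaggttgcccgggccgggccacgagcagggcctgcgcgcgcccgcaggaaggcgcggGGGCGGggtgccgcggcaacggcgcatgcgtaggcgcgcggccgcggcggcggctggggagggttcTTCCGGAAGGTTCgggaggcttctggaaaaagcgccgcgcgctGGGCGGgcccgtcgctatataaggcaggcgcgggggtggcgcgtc
DNAJB1 promoter, chr19:14629210-14629459, minus strand: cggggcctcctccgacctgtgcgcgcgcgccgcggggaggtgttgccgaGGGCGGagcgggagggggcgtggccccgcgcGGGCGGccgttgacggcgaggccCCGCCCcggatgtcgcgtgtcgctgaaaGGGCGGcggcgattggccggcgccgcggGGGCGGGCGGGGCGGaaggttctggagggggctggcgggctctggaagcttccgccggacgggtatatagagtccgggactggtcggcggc
HSPB8 promoter, chr12:119616486-119616735, plus strand: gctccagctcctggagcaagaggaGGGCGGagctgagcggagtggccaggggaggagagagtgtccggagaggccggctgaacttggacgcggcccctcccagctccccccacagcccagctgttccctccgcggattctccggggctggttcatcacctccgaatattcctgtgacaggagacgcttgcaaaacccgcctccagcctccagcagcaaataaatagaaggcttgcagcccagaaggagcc

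The RNA-seq table gives 1 FPKM value (fragments scaled to the length of the transcript and to the size of the library) for each gene and library. The depth behind single genes is unknown. Of the 4 libraries, shLucif replicate 1 stood apart, with Pearson correlations of 0.900 to 0.907 to the others across genes on the log2 scale, whereas the others correlated at 0.947 to 0.969. KMT2C itself had 2.34 and 6.77 FPKM in shLucif replicates 1 and 2, and 1.07 and 2.69 FPKM in shMLL3. The cell lines thus overlapped for the targeted gene (log2 difference -1.02, standard error 0.54, limma adjusted p = 0.629). This was -1.70 without shLucif replicate 1 and -0.35 without shLucif replicate 2. Without shLucif replicate 1 and with the GC trend removed it was -1.56 and called lower (limma adjusted p = 0.0145). All 8 luminal markers were above 1 FPKM in every library, and the summed level of the 4 basal markers was at most 0.336 FPKM. Mesenchymal and leukocyte markers each had 1 gene above 1 FPKM in every library, with summed levels of 13.1 to 18.3 FPKM and 8.37 to 9.72 FPKM in shLucif, and of 17.3 to 17.8 FPKM and 7.68 to 13.9 FPKM in shMLL3. Their part in the results was not tested. Across genes, log2 differences were larger where transcripts had more GC (Spearman correlation 0.536), so values with that trend removed are given for the 10 genes where they moved by over 1.5 times.

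The heat shock genes did not move as 1 group after MLL3 KD. HSPB8 was higher in both shMLL3 libraries than in both shLucif libraries. HSP90AA1, HSPH1, HSPD1 and HSPE1 were lower in both, and the libraries overlapped for HSPB1, HSPA1A, HSPA8, HSP90AB1 and DNAJB1. Among all 11134 genes tested, 17.6% were higher without overlap and 25.3% were lower without overlap, so 1 and 4 of 10 are near the background. All 10 genes passed the filter on low values, and 0 were called by limma at an adjusted p of 0.05 (background 0% higher and 0.00898% lower, which is 1 gene of 11134). On the mean log2 scale 7 of the 10 genes were below 0, against 59.1% of all genes. At an unadjusted p under 0.05 limma gave 2, HSPB8 and HSPH1, against 3.67% of genes higher and 4.31% lower. The median log2 difference of the 10 genes was -0.53, beside -0.10 for all genes tested. Without shLucif replicate 1 these medians were -0.04 and 0.02, and without shLucif replicate 2 they were -0.90 and -0.19.

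**Figure D1:**
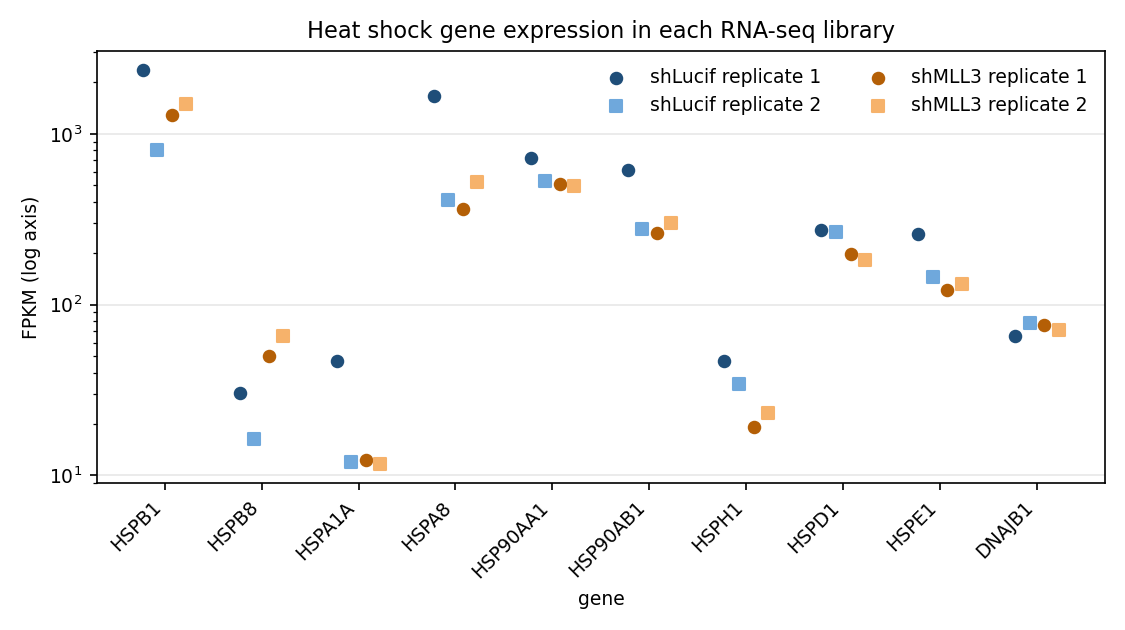
FPKM of the 10 heat shock genes (log axis) in each of the 4 RNA-seq libraries, with shLucif in blue and shMLL3 in orange, circles for replicate 1 and squares for replicate 2. The dark blue circles of shLucif replicate 1 are the highest point for 8 of the 10 genes, and HSPB8 is the gene with both shMLL3 libraries above both shLucif libraries.

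In 8 of the 10 genes shLucif replicate 1 was the highest library, against 47.9% of all genes tested. The exceptions were HSPB8 and DNAJB1. The FPKM of the 10 genes summed to 6081 in shLucif replicate 1, 2577 in shLucif replicate 2, 2898 in shMLL3 replicate 1 and 3296 in shMLL3 replicate 2. The shLucif replicates were thus farther apart than the cell lines.

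HSPB1 (Hsp27), a small heat shock protein that binds actin and unfolded protein and is induced by estrogen in breast cancer cells, was the most abundant of the 10. It had 2354 and 805 FPKM in shLucif replicates 1 and 2, and 1282 and 1493 FPKM in shMLL3. Both shMLL3 libraries lay between the shLucif replicates, with a log2 difference of 0.01 (limma standard error 0.51, adjusted p = 0.998). This became 0.78 without shLucif replicate 1 and -0.77 without shLucif replicate 2, and -0.40 with the GC trend removed, so no direction can be given. HSPB1 made up 38.7 and 31.3% of the summed FPKM of the 10 genes in shLucif and 44.3 and 45.3% in shMLL3.

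HSPB8 (Hsp22), the small heat shock protein that works with the co-chaperone BAG3 in chaperone-assisted autophagy, had 30.3 and 16.3 FPKM in shLucif replicates 1 and 2. In shMLL3 it had 49.9 and 65.2 FPKM. Every shMLL3 library was above every shLucif library, and the means were 23.29 ± 9.91 FPKM (SD, n = 2) and 57.55 ± 10.85 FPKM (SD, n = 2), a ratio of 2.47. The log2 difference of 1.34 (standard error 0.37) was the 142nd highest of the 11134 genes, and limma gave an adjusted p of 0.506. It was 1.78 without shLucif replicate 1 and 0.90 without shLucif replicate 2, and 1.28 with the GC trend removed. With both changes together, an alternative chosen after seeing the data, it was 1.71 at an adjusted p of 0.00184, where 1.67% of genes were called higher and 1.36% lower.

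HSPB1 exceeded HSPB8 in FPKM by 77.7 and 49.4 times in shLucif and by 25.7 and 22.9 times in shMLL3. The balance between both small heat shock proteins was therefore lower in every shMLL3 library, at an exact two-sided permutation p of 0.333, the smallest that 2 against 2 libraries allow.

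HSPA8 is the constitutive HSP70 of the cytosol, HSPA1A is its heat-inducible relative, and HSPH1 (Hsp110) exchanges their nucleotide. HSPA8 had 1667 and 409 FPKM in shLucif replicates 1 and 2, and 364 and 519.9 FPKM in shMLL3. HSPA1A had 47.1 and 11.9 FPKM in shLucif, and 12.3 and 11.7 FPKM in shMLL3. In both genes shLucif replicate 1 lay far above the other libraries, at 4.07 times shLucif replicate 2 for HSPA8 and 3.94 times for HSPA1A. The other 3 libraries were close together. The log2 differences of -0.92 for HSPA8 (standard error 0.64, limma adjusted p = 0.671) and -0.96 for HSPA1A (standard error 0.60, limma adjusted p = 0.654) became 0.09 and 0.01 without shLucif replicate 1, and -1.94 and -1.93 without shLucif replicate 2. Both genes were thus high in the same library. In the other 3 libraries HSPA1A was nearly level, at 11.7 to 12.3 FPKM, so no shared or opposite order can be read there. HSPA8 over HSPA1A was 35.4, 34.3, 29.6 and 44.4 in the order shLucif replicates 1 and 2 and shMLL3 replicates 1 and 2.

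HSPA1B encodes a protein near-identical to HSPA1A, so reads can be split between the genes, and their values are uncertain. HSPA1B had 10.7 and 9.36 FPKM in shLucif and 11.0 and 8.48 FPKM in shMLL3, and so a narrower range than HSPA1A. HSPA1L, whose start lies within 5 kb of that of HSPA1A, had 1.84 and 1.07 FPKM in shLucif and 1.34 and 0.882 FPKM in shMLL3, and did not pass the filter.

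HSPH1 had 46.7 and 34.2 FPKM in shLucif replicates 1 and 2, and 19.2 and 23.1 FPKM in shMLL3. The cell lines did not overlap, and the means were 40.44 ± 8.83 FPKM (SD, n = 2) and 21.12 ± 2.75 FPKM (SD, n = 2). The log2 difference was -0.91 (standard error 0.30), with a limma adjusted p of 0.594. It became -0.69 without shLucif replicate 1 and -0.64 with the GC trend removed, and -0.38 with both. The transcript GC content of HSPH1 is 39.6%.

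HSP90AA1 and HSP90AB1 encode the stress-inducible and the constitutive HSP90 of the cytosol. HSP90AA1 had 723 and 533 FPKM in shLucif replicates 1 and 2, and 510.5 and 498 FPKM in shMLL3. HSP90AB1 had 614 and 278 FPKM in shLucif, and 263 and 300.2 FPKM in shMLL3. HSP90AA1 was lower in both shMLL3 libraries, by a log2 difference of -0.30 (standard error 0.29, limma adjusted p = 0.741), which was -0.08 without shLucif replicate 1 and -0.09 with the GC trend removed. HSP90AB1 overlapped, with a log2 difference of -0.56 (standard error 0.42, limma adjusted p = 0.686) that was 0.01 without shLucif replicate 1. HSP90AA1 over HSP90AB1 was 1.18 in shLucif replicate 1 and 1.92, 1.94 and 1.66 in shLucif replicate 2 and shMLL3 replicates 1 and 2.

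HSPD1 (Hsp60) and HSPE1 (Hsp10) are transcribed away from each other from starts 539 bases apart on chromosome 2. HSPD1 had 274 and 265 FPKM in shLucif replicates 1 and 2, and 197.5 and 183 FPKM in shMLL3. It was the heat shock gene whose shLucif replicates differed least, with means of 269.6 ± 6.29 FPKM (SD, n = 2) and 190.1 ± 10.6 FPKM (SD, n = 2). The log2 difference of -0.50 (standard error 0.26, limma adjusted p = 0.629) was -0.48 without shLucif replicate 1 and -0.53 without shLucif replicate 2. With the GC trend removed it was -0.29, and the transcript GC content of HSPD1 is 41.7%. The row that holds HSPE1 also holds its neighbour MOB4 and their read-through transcript, so its values are not of HSPE1 alone. It had 260.5 and 146 FPKM in shLucif and 123 and 131.5 FPKM in shMLL3, a log2 difference of -0.61 (standard error 0.35, limma adjusted p = 0.641) that was -0.20 without shLucif replicate 1 and -0.34 with the GC trend removed.

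DNAJB1 (Hsp40), the J domain protein that delivers clients to HSPA1A and HSPA8, was the most even of the 10. It had 65.1 and 77.7 FPKM in shLucif replicates 1 and 2, and 76.35 and 70.7 FPKM in shMLL3. The log2 difference was 0.05 (standard error 0.27, limma adjusted p = 0.964), between -0.17 and 0.17 over 16 alternatives and -0.03 with the GC trend removed.

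**Figure D2:**
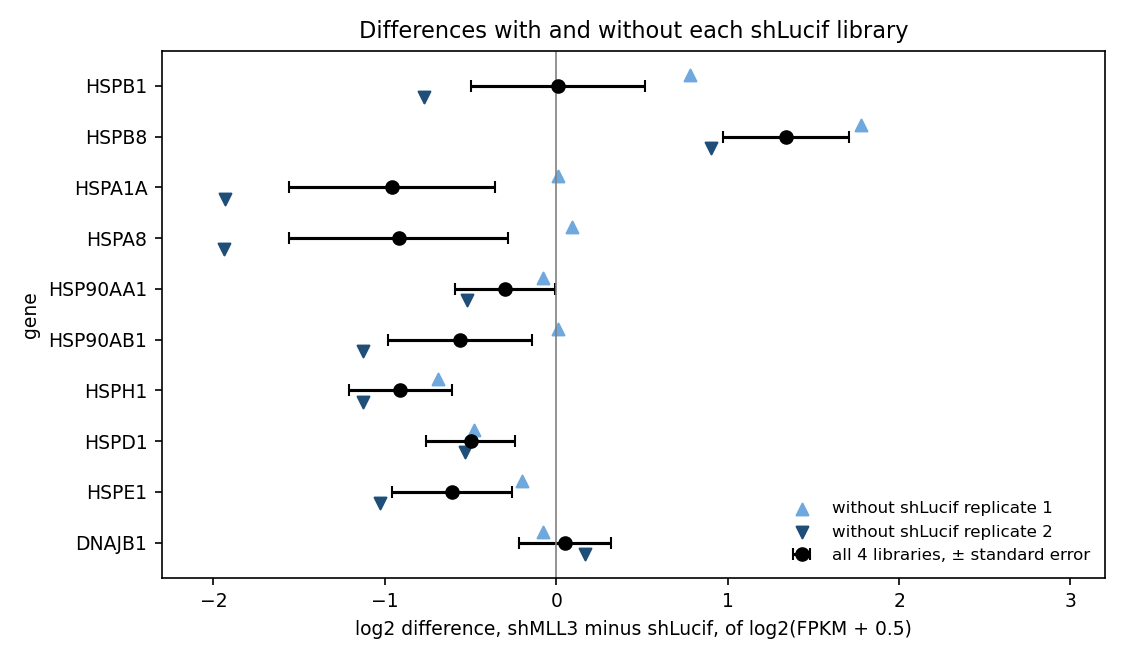
Log2 difference of each heat shock gene, shMLL3 minus shLucif, on the scale of log2(FPKM + 0.5), from all 4 libraries (black, with the standard error), without shLucif replicate 1 (light triangles) and without shLucif replicate 2 (dark triangles). HSPB8 stays above 0 and HSP90AA1, HSPH1, HSPD1 and HSPE1 stay below it in these 3 fits, while HSPA8 runs from -1.94 to 0.09 and HSPB1 from -0.77 to 0.78.

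How far each value rests on 1 control library is shown by the plot of differences with and without each shLucif library. Without shLucif replicate 2, limma called 5 of the 10 genes lower, with log2 differences of -1.94 for HSPA8, -1.93 for HSPA1A, -1.13 for HSPH1, -1.13 for HSP90AB1 and -1.03 for HSPE1. Among all genes 8.23% were called lower and 3.17% higher in that fit, in which the control is shLucif replicate 1 alone and is assumed to vary like the shMLL3 libraries. Without shLucif replicate 1, 0 of the 10 and 2 of all genes were called.

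The other genes of the pathway were taken as 9 lists with 120 genes, of which 105 passed the filter and 0 were called by limma. In these 105 genes, 12 were higher without overlap and 39 lower, against 17.6 and 25.3% of all genes, and 67 were highest in shLucif replicate 1. Their median log2 difference was -0.29.

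HSF1, the factor that switches on the heat shock response, had 64.2 and 60.5 FPKM in shLucif and 80.4 and 78.3 FPKM in shMLL3. The shMLL3 libraries were both higher, by a log2 difference of 0.35 (standard error 0.26, limma adjusted p = 0.686), which was -0.02 with the GC trend removed. HSF2, a second heat shock factor, had 7.34 and 3.92 FPKM in shLucif and 2.80 and 2.61 FPKM in shMLL3, a log2 difference of -0.88 (standard error 0.35, limma adjusted p = 0.611). This was -0.46 without shLucif replicate 1 and -1.29 without shLucif replicate 2. Without shLucif replicate 1 and with the GC trend removed it was -0.14. Of the 5 factors and regulators that passed the filter, 1 was higher and 2 lower without overlap, against 17.6 and 25.3% of all genes. HSPA6, a strictly inducible member of the HSP70 family, and HSPA7 did not pass it. HSPA6 lay between 0.903 and 1.45 FPKM, and HSPA7 was at most 0.0743 FPKM.

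BAG3, the partner of HSPB8, had the largest rise among the 24 co-chaperones of HSP90 and HSP70 that passed the filter. It had 53.3 and 29.3 FPKM in shLucif replicates 1 and 2, and 113 and 83.1 FPKM in shMLL3. The libraries did not overlap, the ratio of the means was 2.37, and the log2 difference was 1.28 (standard error 0.37, limma adjusted p = 0.518). This was 1.71 without shLucif replicate 1, 0.85 without shLucif replicate 2 and 1.10 with the GC trend removed, with limma adjusted p of 0.102, 0.0872 and 0.752. Without shLucif replicate 1 and with the GC trend removed it was 1.5 and called, at a limma adjusted p of 0.00427, where 1.67% of genes were called higher. HSPB8 and BAG3 thus ranked 142nd and 153rd of 11134 genes by their log2 difference.

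At the other end of that list, CACYBP, a co-chaperone that binds HSP90 and a ubiquitin ligase, had 100.5 and 56.9 FPKM in shLucif and 31.5 and 36.3 FPKM in shMLL3. Its log2 difference was -1.15 (standard error 0.35, limma adjusted p = 0.557), -0.74 without shLucif replicate 1 and -1.56 without shLucif replicate 2. Without shLucif replicate 1 and with the GC trend removed it was -0.45. Of the 24 co-chaperones, 4 were higher and 10 lower without overlap, against 17.6 and 25.3% of all genes. Their median log2 difference was -0.34, or 0.04 without shLucif replicate 1. PTGES3 (p23), which steadies HSP90 on steroid receptors, was one of the lower ones and was chosen after its values were seen. It had 465 and 390.1 FPKM in shLucif and 294 and 245 FPKM in shMLL3. The log2 difference of PTGES3 was -0.66 (standard error 0.28, limma adjusted p = 0.613). This was -0.54 without shLucif replicate 1, -0.41 with the GC trend removed and -0.25 with both.

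All 14 subunits of the cytosolic chaperonin and of prefoldin, which fold actin and tubulin, had a negative log2 difference, against 59.1% of all genes. Without shLucif replicate 1, 4 of them were above 0, namely CCT7 at 0.28, PFDN6 at 0.21, PFDN5 at 0.07 and PFDN4 at 0.03. With the GC trend removed all stayed below 0, from -0.77 to -0.05. With both changes PFDN4 was at 0.60, CCT7 at 0.23, CCT8 at 0.13, PFDN6 at 0.06 and PFDN5 at 0.05. The others then ran from -0.37 to -0.04. In 9 of the 14 the shMLL3 libraries were lower without overlap, against 25.3% of all genes, and the median was -0.56, or -0.20 without shLucif replicate 1. CCT6A had the largest difference, from 148 and 80.5 FPKM in shLucif to 55.7 and 56.2 FPKM in shMLL3 (log2 difference -0.96, standard error 0.36, limma adjusted p = 0.605). PFDN1 had the smallest difference, at -0.21 (standard error 0.27, limma adjusted p = 0.805). In 13 of the 14 genes shLucif replicate 1 was the highest library, against 47.9% of all genes. CCT6A was at -0.52 without shLucif replicate 1 and at -1.39 without shLucif replicate 2. Without shLucif replicate 1 and with the GC trend removed it was at -0.30.

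Among the 9 other HSP70 and HSP110 genes that passed the filter, 1 was higher and 4 lower without overlap. Of all genes, 17.6% were higher and 25.3% lower without overlap. HSPA9 (mortalin), the HSP70 of mitochondria, had 222 and 180.4 FPKM in shLucif and 113.5 and 113 FPKM in shMLL3. Its log2 difference of -0.82 (standard error 0.27, limma adjusted p = 0.595) was -0.67 without shLucif replicate 1 and -0.97 without shLucif replicate 2. Without shLucif replicate 1 and with the GC trend removed it was -0.44. HYOU1, an HSP110 of the endoplasmic reticulum, had 33.6 and 44.5 FPKM in shLucif and 47.65 and 51.8 FPKM in shMLL3. HSP90B1 and TRAP1, the HSP90 proteins of the endoplasmic reticulum and of mitochondria, overlapped between the cell lines, with log2 differences of -0.07 and -0.49. That of TRAP1 was 0.18 without shLucif replicate 1, and -1.16 and called without shLucif replicate 2 (limma adjusted p = 0.0357), and that of HSP90B1 was 0.14 with the GC trend removed.

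CLPB, which pulls aggregated protein apart in mitochondria, had 5.46 and 5.63 FPKM in shLucif and 11.6 and 10.9 FPKM in shMLL3. This was a ratio of 2.03 with replicates that differed little (log2 difference 0.96, standard error 0.26, limma adjusted p = 0.495), and 0.94 without shLucif replicate 1. It was called at 0.98 without shLucif replicate 2 (limma adjusted p = 0.048) and at 1.02 without shLucif replicate 1 and with the GC trend removed (limma adjusted p = 0.0333). The 12 mitochondrial genes included 2 that were higher and 5 that were lower without overlap. Of the 30 J domain proteins that passed the filter, 3 were higher and 10 lower without overlap. The shares of all genes, for both lists, were 17.6% higher and 25.3% lower without overlap. DNAJC5, which serves synaptic and secretory vesicles, had the largest rise (log2 difference 0.83, standard error 0.28) and DNAJC7 the largest fall (log2 difference -0.69, standard error 0.40), with limma adjusted p of 0.595 and 0.642. DNAJC7 was at -0.16 without shLucif replicate 1, and at -1.22 and called without shLucif replicate 2 (limma adjusted p = 0.0325).

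Genes of endoplasmic reticulum stress went both ways. Of 16, 7 were above 0 and 9 below it, and the median was -0.09. Without overlap 2 were higher and 2 lower, against 17.6 and 25.3% of all genes. SDF2L1 had the highest log2 difference, at 0.55 (standard error 0.30, limma adjusted p = 0.629), which was 0.15 with the GC trend removed. HERPUD1 had the lowest, at -0.41 (standard error 0.53, limma adjusted p = 0.805) and -0.14 without shLucif replicate 1, although its shMLL3 replicates, at 32.1 and 96.1 FPKM, lay on either side of both shLucif libraries. Of the 9 other small heat shock proteins 2 passed the filter, both with overlap. These were HSPB11 (now IFT25), at a log2 difference of -0.28, and the row that holds HSPB2 with its neighbour C11orf52, at -0.32. Without shLucif replicate 1 these were 0.16 and 0.74, and without shLucif replicate 2 they were -0.73 and -1.38, the second called (limma adjusted p = 0.0336).

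**Figure D3:**
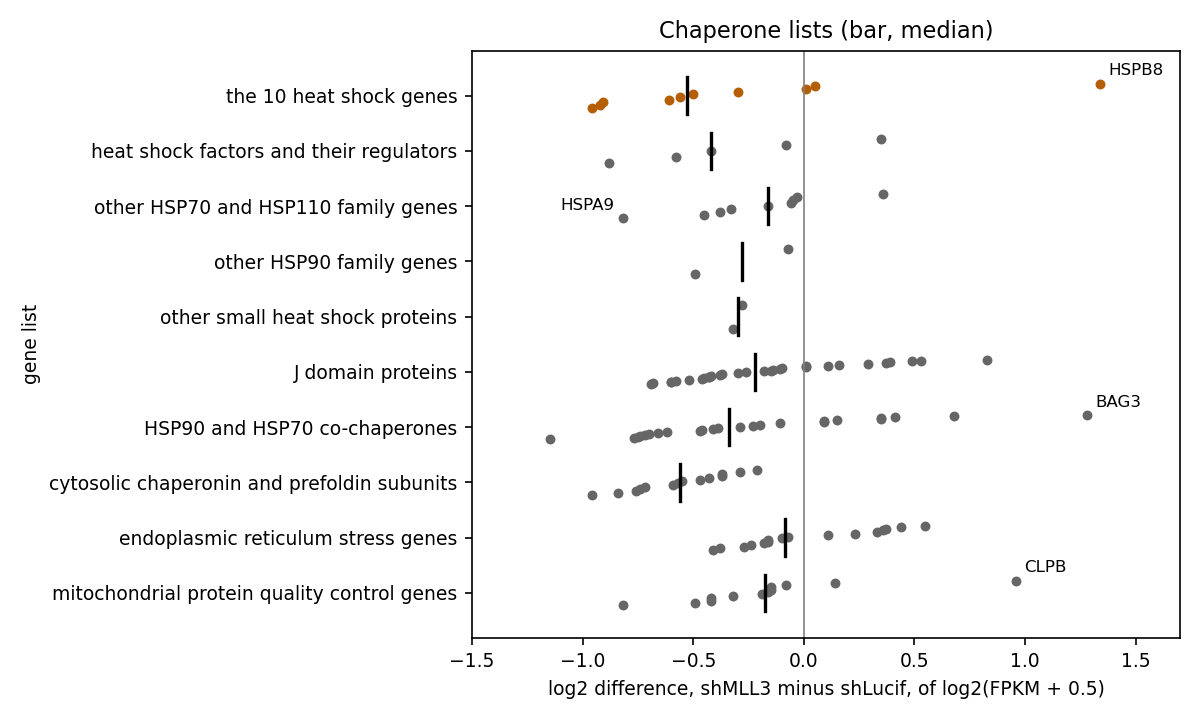
Log2 differences, shMLL3 minus shLucif, of the 10 heat shock genes (orange) and of the genes that passed the filter in 9 lists of chaperones and related genes (grey), with a bar at each median. HSPB8 and BAG3 lie farthest to the right, at 1.34 and 1.28, and all chaperonin and prefoldin subunits lie left of 0.

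The peaks around the heat shock genes were compared next, to ask whether H3K4me1 and the binding of ERα and SP1 differed at these loci. The authors called peaks separately in each library with lists of up to 300000, so the 50000 highest peaks of each list were compared. The windows of 50 kb joined into 9 regions, since HSPD1 and HSPE1 share theirs.

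At the promoters, within 1 kb of the start, SP1 differed most between the cell lines. An SP1 peak lay at 1 and 1 of the 10 promoters in shLucif replicates 1 and 2, and at 6 and 9 in shMLL3 replicates 1 and 2. Of all genes, 5.78 and 6.52% had such a peak in shLucif, and 7.26 and 38.1% in shMLL3. The difference of 6.5 promoters had an exact two-sided permutation p of 0.333, the smallest that 2 against 2 allow. Among genes that passed the RNA filter these shares were 8.37, 9.44, 10.9 and 62.4%, and among genes at or above the lowest mean FPKM of the 10 they were 10.3, 12, 13.4 and 72.5%. The library of shMLL3 replicate 2 thus stood apart across the genome. Without it the difference was 5 promoters.

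In 6 genes, HSPA8, HSP90AA1, HSP90AB1, HSPD1, HSPE1 and DNAJB1, an SP1 peak lay at the promoter in both shMLL3 libraries and in neither shLucif library. This held for 3.08% of all 20418 genes. Since the heat shock genes are highly expressed, the share was also taken, after seeing the data, among genes that passed the RNA filter, where it was 5.13%, and among the 3968 genes at or above the lowest mean FPKM of the 10, where it was 6.15%. HSPD1 and HSPE1 count here with 1 shared peak. Both SP1 lists of shLucif held 0 peaks at an FDR of 0.01, a threshold set here on the deposited FDRs, with lowest FDRs of 0.029 and 0.0622, and were called against an input of their own library series, whereas the shMLL3 lists were called against an input of another series. In shMLL3 replicate 2 the promoter peaks of HSP90AA1 and DNAJB1 also missed this threshold, with FDRs of 0.0337 and 0.0189. Those of HSPA8, HSP90AB1, HSPD1 and HSPE1 were below 0.01 in both shMLL3 libraries. The name of the list of shMLL3 replicate 1 lacks the words for filtered and deduplicated reads that the other lists carry. The input follows the cell lines and cannot be told apart from the knockdown, and the part of the name's difference was not tested.

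The highest of these peaks lay between HSPD1 and HSPE1, at chr2:198364466-198365168, over both starts' upstream sequence and the overlapping heat shock elements shown above. Ranks here count from 1, the strongest peak of a library. This site ranked 4754 and 130 in shMLL3 replicates 1 and 2 and 279479 in shLucif replicate 1, and the strongest peak within 1 kb in shLucif replicate 2, which did not overlap this site, ranked 171435. The HSPA8 promoter, chr11:122932774-122933273, ranked 5829 and 1717 in shMLL3 and 286824 and 155034 in shLucif. It overlaps the stretch with 2 heat shock elements and 2 GC boxes. The HSP90AB1 promoter, chr6:44214621-44215120, ranked 6291 and 4159 in shMLL3 and was listed in neither shLucif library.

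The peaks of HSP90AA1 and DNAJB1 ranked lower than these. The strongest peak within 1 kb of HSP90AA1 ranked 34700 and 28549 in shMLL3, with a summit at -784 bases from the start in replicate 1, and 74061 and 270706 in shLucif. DNAJB1, whose promoter holds 7 GC boxes, ranked 45673 and 18193 in shMLL3, at different positions, and in shLucif 121337 in replicate 1 with no peak in replicate 2. In the remaining genes the shMLL3 replicates differed. HSPH1 ranked 770 and HSPB1 2634 in shMLL3 replicate 2, and neither was listed in shMLL3 replicate 1. In shLucif, HSPH1 was not listed and HSPB1 ranked 56064 and 35605, at another position. HSPA1A ranked 203 in shLucif replicate 1 and 2651 in shMLL3 replicate 2, but 152659 in shLucif replicate 2 and nowhere in shMLL3 replicate 1. HSPB8 had no promoter peak above rank 187673 in any library.

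**Figure D4:**
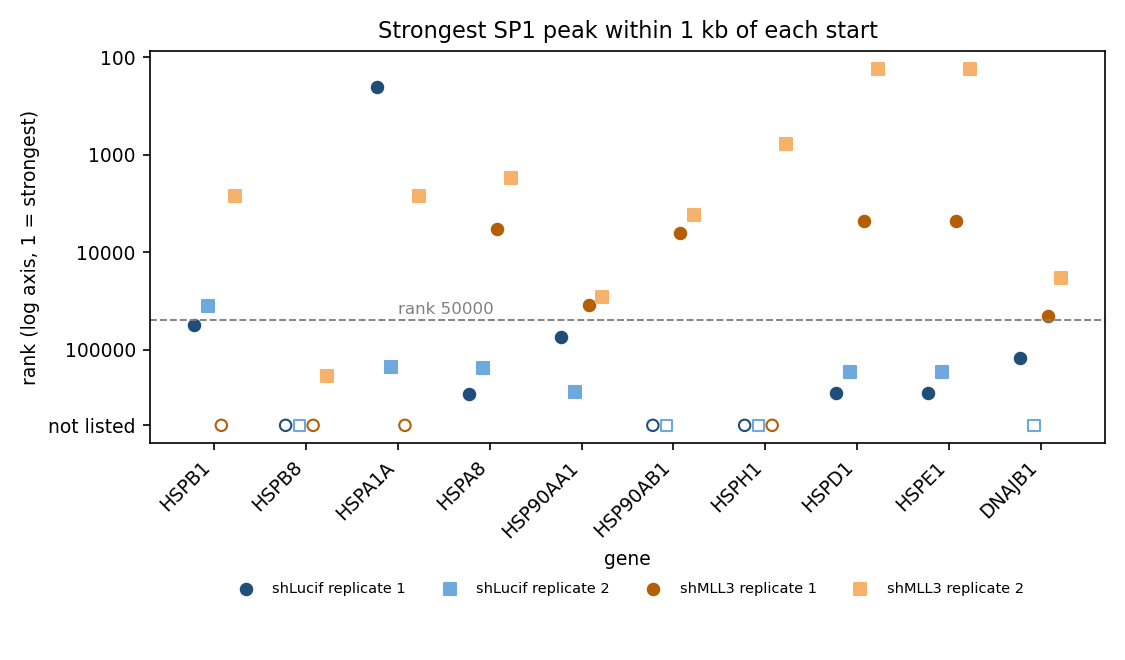
Rank of the strongest SP1 peak within 1 kb of the start of each heat shock gene in each library (log axis, 1 is the strongest peak), with open symbols for no listed peak and a dashed line at rank 50000. Both orange symbols lie above the line and both blue symbols below it for HSPA8, HSP90AA1, HSP90AB1, HSPD1, HSPE1 and DNAJB1.

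HSPB8, with the largest rise in RNA, had no SP1 promoter peak among the 50000 highest. The genes with such a peak in both shMLL3 and neither shLucif library were HSPA8, HSP90AA1, HSP90AB1, HSPD1, HSPE1 and DNAJB1. Their log2 differences in RNA were, in that order, -0.92, -0.30, -0.56, -0.50, -0.61 and 0.05. Without shLucif replicate 1 they were 0.09, -0.08, 0.01, -0.48, -0.20 and -0.08. Whether RNA and SP1 peaks are related was not tested. Within 50 kb, the number of SP1 peaks was 11 and 16 in shLucif and 14 and 40 in shMLL3, a difference of 13.5 (exact two-sided permutation p = 0.667) that was 0.5 without shMLL3 replicate 2. HSP90AB1 and DNAJB1 were the 2 of 10 genes with more SP1 peaks in both shMLL3 libraries, against 14.5% of all genes, and 0 had fewer in both, against 5.98%.

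H3K4me1, the mark that MLL3 deposits, is mostly found at enhancers and less at the starts of active genes. Of the 10 promoters, 0 held a peak among the 50000 highest in either shLucif library or in shMLL3 replicate 1, and 1 (HSPB1) did in shMLL3 replicate 2. Of all promoters, 8.3 and 7.7% held such a peak in shLucif and 5.0 and 5.6% in shMLL3, so these counts are near the background. Within 50 kb there were 12 and 20 peaks in shLucif and 12 and 12 in shMLL3, a difference of -4 (exact two-sided permutation p = 1) that was 0 without shLucif replicate 2. With the 100000 highest peaks the counts did not overlap, at 32 and 52 in shLucif and 26 and 20 in shMLL3, a difference of -19 (exact two-sided permutation p = 0.333, the smallest possible). With all listed peaks, about as many in each list, they were 136 and 145 in shLucif and 98 and 107 in shMLL3, a difference of -38 at the same p. Fewer peaks near the genes in shMLL3 were thus counted in lists that reach to weaker peaks, and the mean near any gene was lower as well. With all listed peaks this mean was 18.3 and 18.1 in shLucif and 16.6 and 16.8 in shMLL3. Per heat shock gene it was 15.9 and 16.0 in shLucif and 11.3 and 12.1 in shMLL3. With the 100000 highest peaks the mean near any gene was 5.98 and 6.07 in shLucif and 5.67 and 5.64 in shMLL3. Per heat shock gene it was 3.5 and 5.4 in shLucif and 3.0 and 2.5 in shMLL3. With all peaks at an FDR of 0.01 or less the means were 78 in shLucif and 13.5 in shMLL3, where the lists themselves differ in length, with 141158 and 192201 such peaks in shLucif and 28599 and 109586 in shMLL3.

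HSP90AA1 was the 1 gene of 10 with fewer H3K4me1 peaks near it in both shMLL3 libraries, with 3 and 3 in shLucif and 1 and 1 in shMLL3. Of all genes 10.5% had fewer without overlap, so 1 of 10 is at the background, and 0 of 10 had more, against 10.7% of all genes. One HSP90AA1 site lay 9.9 kb upstream of the start, at chr14:102562312-102564036, within an intron of the longer isoform of HSP90AA1. It ranked 1885 and 8739 in shLucif and 81593 and 116304 in shMLL3. A second HSP90AA1 site, 39.1 kb upstream, ranked 10444 and 85732 in shLucif and 27216 and 2647 in shMLL3. Downstream of DNAJB1, a site 21.3 kb from the start ranked 17741 and 19985 in shLucif, was not listed in shMLL3 replicate 1 and ranked 298213 in replicate 2. Other sites ranked higher in both shMLL3 libraries. A site 27.3 kb downstream of the start of HSPH1 ranked 11947 and 72616 in shMLL3. In shLucif it ranked 203186 in replicate 1 and was not listed in replicate 2. A site 9.6 kb upstream of HSPA8 ranked 28918 and 158007 in shMLL3 and was listed in neither shLucif library. Its neighbour 11.3 kb upstream of HSPA8 was listed in all 4 libraries, at 154757 and 6142 in shLucif and 1740 and 118734 in shMLL3. Near HSPA8, HSPD1 and HSPE1 the counts of H3K4me1 peaks overlapped between the cell lines.

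ERα peaks near the heat shock genes numbered 11 and 8 in shLucif and 3 and 16 in shMLL3. The means were equal at 9.5 and the replicates of shMLL3 differed more than the cell lines (exact two-sided permutation p = 1). Per heat shock gene there were on average 1.4 and 0.8 peaks in shLucif and 0.3 and 1.8 in shMLL3. Near any gene there were 2.57 and 2.39 in shLucif and 2.27 and 2.42 in shMLL3. Most ERα sites near the 10 genes were among the 50000 highest in 1 library only. At the promoters, 1 peak was found, at HSPH1 in shLucif replicate 2, where it ranked 1193. Of all promoters, 3.65 and 3.43% held an ERα peak in shLucif and 2.66 and 2.48% in shMLL3. Around HSPB8, an estrogen-induced gene in breast cancer cells, ERα peaks numbered 1 and 1 in shLucif and 1 and 3 in shMLL3, at different positions.

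The exception was a site 34.5 kb upstream of HSPA8, in an intron of CLMP, a cell adhesion gene. It ranked 74 and 231 in shLucif replicates 1 and 2 and 161 and 83 in shMLL3 replicates 1 and 2. The 4 summits lay within 55 bases of each other. HSPA8 was the 1 of 10 genes with an ERα peak among the 1000 highest within 50 kb in every library, against 0.656% of all genes, a comparison chosen after seeing the data. Counts near HSPA8 were 1 and 1 in shLucif and 2 and 3 in shMLL3, against 6.86% of genes with more in both shMLL3 libraries, and 0 of the 10 genes had fewer, against 9.34%. The pair in shMLL3 replicate 1 lies on this same site. In the other lists this site ranked 49915 for H3K4me1 in shLucif replicate 1 and 141377 for SP1 in shLucif replicate 2, and it was not listed in the remaining 6.

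ERα peaks and RNA were measured in separate libraries. At this site ERα ranked among the 231 highest peaks in every ERα library. HSPA8 RNA was 364 to 519.9 FPKM in 3 RNA-seq libraries and 1667 FPKM in that of shLucif replicate 1. Whether the site acts on HSPA8 or on CLMP was not tested.

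**Figure D5:**
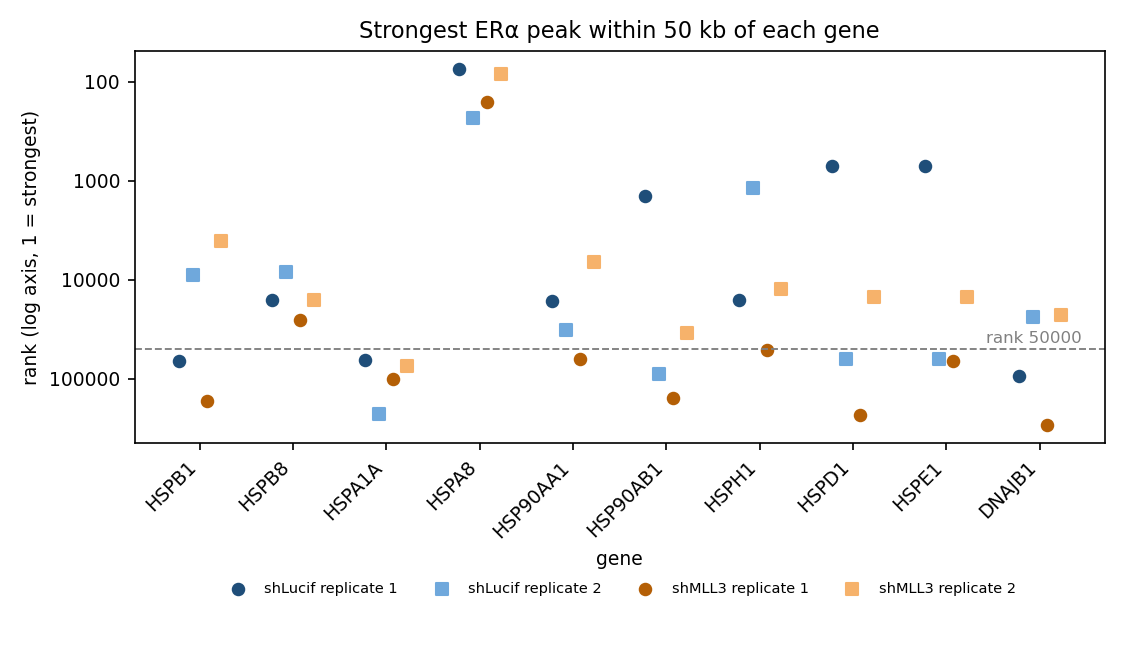
Rank of the strongest ERα peak within 50 kb of each heat shock gene in each library (log axis, 1 is the strongest peak), with a dashed line at rank 50000. HSPA8 is the gene whose 4 libraries all rank between 74 and 231, and no other gene has all 4 libraries among the 1000 highest.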

How the data were processed

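RNA-seq and ChIP-seq were deposited for ZR751shLucif and ZR751shMLL3 cells, with 2 replicates for each cell line and assay as the sample labels give them. The deposited RNA-seq values are FPKM per RefSeq gene, which the authors made with TopHat2 2.0.13, Cufflinks 2.2.1 and Cuffnorm 2.2.1 on hg19. For each peak the deposited lists hold a signal from the peak caller and an FDR on the −log10 scale, both from the authors, after alignment with BWA and against 1 input per cell line. Versions are from the submitters' processing notes. Signal was used only to rank peaks within a library.

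The test was limma 3.58.1 (R 4.3.3) on log2(FPKM + 0.5). It took the 11134 genes whose mean on this scale exceeded 1, and p-values were adjusted over them by Benjamini-Hochberg. Differences are on this scale, which understates changes of low genes. No depth is known for single genes or peaks, so no counting intervals are given. RefSeq identifiers were matched to symbols for 22894 of 23500 rows. Starts were those of the Ensembl canonical transcript in GENCODE 44 lifted to GRCh37. Sequences were read with pysam from that genome, and motifs were exact matches. The sequence of the ERα site near HSPA8 is not reported here. Peaks were assigned by overlap of at least 1 base, and counts per library were compared with exact two-sided permutation tests over libraries. The steps were tested on simulated data.

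All 10 genes are named, with the largest change each way in each of 9 lists, KMT2C, near-identical copies and genes that start within 5 kb. The members and lists were chosen with earlier results of these data known. The 15 alternatives for RNA and those for peaks cover the pseudocount, filter, scaling, variance model, GC trend, a surrogate variable, a replicate block, the number of peaks, distances and single libraries. Those added after seeing the data are named as such.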

Additional observations from a re-analysis of the deposited data

How the results depend on the processing

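With 2 libraries per cell line, the median log2 difference of the heat shock genes moved most when a shLucif library was left out. Peak counts near the genes moved most without a shLucif library for H3K4me1, and without a shMLL3 library for ERα and SP1. No depth is known for single genes or peaks. Without each library in turn, 0 to 5 of the heat shock genes were called and their median log2 difference ran from -0.90 to -0.04. The 5 were called without shLucif replicate 2. In the fit that drops shLucif replicate 1 and takes out the GC trend, which was added after seeing the data, 1 was called (HSPB8), the median was 0.11, and the log2 differences of HSPA8, HSP90AA1, HSP90AB1, HSPE1 and DNAJB1 turned to 0.22, 0.17, 0.09, 0.12 and -0.17. With the GC trend removed, with or without the replicate block, HSPB1 turned to -0.40 and DNAJB1 to -0.03. Leaving out 1 library turned HSPB1 to -0.77 (without shLucif replicate 2) and -0.10 (without shMLL3 replicate 2), DNAJB1 to -0.08 (without shLucif replicate 1) and -0.01 (without shMLL3 replicate 1), and HSPA1A, HSPA8 and HSP90AB1 to 0.01, 0.09 and 0.01 (without shLucif replicate 1). Over the fits that only leave out 1 library, HSPB1 ran from -0.77 to 0.78, HSPA1A from -1.93 to 0.01 and HSPA8 from -1.94 to 0.09. In the same fits HSP90AB1 ran from -1.13 to 0.01 and DNAJB1 from -0.08 to 0.17. Of all genes 1 was called with all libraries, 1269 without shLucif replicate 2 and 328 in the added fit. Of 160 values of single genes under alternatives, 138 kept their direction and call. The cause was not tested.

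The replicate numbers did not pair the RNA libraries, since deviations of same-numbered libraries correlated at 0.0374. With the replicate block, 0 heat shock genes and 33 of all genes were called, and the median was -0.53. For peaks the block gave the values of the unpaired difference.

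Without each library in turn, the difference in H3K4me1 peaks near the genes ran from -8 to 0. With the 100000 highest peaks it was -19 and with all listed peaks -38, both without overlap. In both settings the mean near any gene was also lower without overlap. Without each library, the difference in H3K4me1 promoter peaks ran from 0 to 1. For promoters it was 0 with the 20000 highest peaks, -0.5 with 100000, -1 at an FDR of 0.01 and -2 with all listed peaks. ERα peaks near the genes differed by -11.5 at an FDR of 0.01 and by 12.5 with all listed peaks, and by -6.5 to 6.5 without each library. ERα promoter peaks differed by 0 with all listed peaks and by -1 to 0 without each library. SP1 peaks near the genes differed by 0.5 to 26.5 and SP1 promoter peaks by 5 to 8 without each library. With all listed peaks, which reach ranks of no stated confidence, the SP1 promoter difference was 1.5.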
